A study of Mus musculus with 12 samples.

Results

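BMAL1-ChIP-seq peaks from mouse adult fibroblasts (MAFs), control or senescent, were merged into 16818 regions, and 1195 of them had a peak in 2 or 3 of the 3 senescent libraries and in exactly 1 of the 3 control libraries. These senescent-leaning regions, 7.11% of all regions, were chosen by their peak calls, so the calls themselves are a description of the set and no test was made on them. The mirrored rule, with 2 or 3 control calls and exactly 1 senescent call, held for 443 regions (2.63%). MAFs were primary cells grown at 3% oxygen from ear tissue of female C57BL6/J mice of adult age. The senescent group had received X-rays at a dose of 20 Gy, and the control group a sham irradiation. Both groups were treated with 100 nM dexamethasone to align their clocks, collected at 12 hours, and fixed in 1% formaldehyde for 10 min, with n = 3 libraries per group. Whether the 3 replicates came from separate animals is not stated in the sources used here, so differences between them may be technical.

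BMAL1 is a basic helix-loop-helix protein that pairs with CLOCK and binds the E-box CACGTG to drive the genes of the circadian clock. AP-1 is a family of dimers of FOS, JUN and related proteins that binds TGAGTCA, opens chromatin at enhancers, and is known as a regulator of the senescence program. Senescent cells stop dividing, resist apoptosis and secrete inflammatory and matrix-remodelling factors. The lists give the position and score of peaks that passed a false discovery rate of 1%. They hold no reads and leave the depth unknown, so a region without a peak in a library is one where no call was made, and BMAL1 may still be bound there.

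The sequences around the motif of the best-ranked member regions are shown first, because the E-box and AP-1 classes are the ones the results compare. Most members held neither motif within 100 bp of the peak centre, as counted with the motif shares. Regions were ranked by the mean of their senescent ranks, each as a percent of the list. Capitals mark CACGTG and TGAGTCA, read on both strands, so that TGACTCA is the same AP-1 site on the other strand. All sequences are the plus strand of mm10, and windows that touch an exon are cut to 30 bases. At promoters, within 1000 bp of a protein-coding start site, the best members with an E-box lay at Mapkapk3, a kinase downstream of p38, Slc7a2, a transporter of cationic amino acids, and Orai2, a calcium channel subunit:
Mapkapk3, chr9:107289763-107289792: ccgcccgcgtccCACGTGaccccccacccc
Slc7a2, chr8:40862129-40862214: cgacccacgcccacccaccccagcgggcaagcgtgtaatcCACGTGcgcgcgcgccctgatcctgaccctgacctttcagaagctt
Orai2, chr5:136170723-136170752: cctgccgcggacCACGTGacctgaatagct

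Away from promoters, the E-box class was led by a region that also carried AP-1 (4930535I16Rik, shown with that class), an intron of the adaptor gene Shc2 and a site upstream of the small GTPase gene Rasd2:
Shc2, chr10:79633170-79633255: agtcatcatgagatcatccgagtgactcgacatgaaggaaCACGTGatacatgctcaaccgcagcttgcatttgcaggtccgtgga
Rasd2, chr8:75212757-75212842: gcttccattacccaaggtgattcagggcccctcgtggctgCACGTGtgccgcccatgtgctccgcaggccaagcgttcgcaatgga

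Distal members with an AP-1 motif and no E-box within 100 bp of the peak centre were led by introns of 3 genes. The Hk1 region held 1 E-box farther from the centre. The genes were Hk1 (hexokinase 1), Snx33 (a sorting nexin) and P2rx7 (an ATP-gated channel), the last within a run of short tandem repeats:
Hk1, chr10:62300318-62300404: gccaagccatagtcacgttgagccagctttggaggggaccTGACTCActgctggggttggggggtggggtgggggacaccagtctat
Snx33, chr9:56924685-56924771: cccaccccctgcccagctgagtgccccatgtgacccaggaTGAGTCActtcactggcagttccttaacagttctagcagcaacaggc
P2rx7, chr5:122648014-122648100: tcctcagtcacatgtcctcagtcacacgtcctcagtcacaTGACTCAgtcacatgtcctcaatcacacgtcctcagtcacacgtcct

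Members with both motifs within 100 bp of the peak centre were led by intergenic regions nearest to 4930535I16Rik, Klf14 (a zinc finger transcription factor) and Tomm20 (a receptor for mitochondrial import):
4930535I16Rik, chr4:123990762-123990847: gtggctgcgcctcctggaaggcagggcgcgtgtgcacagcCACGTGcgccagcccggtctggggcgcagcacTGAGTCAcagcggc
Klf14, chr6:31088694-31088779: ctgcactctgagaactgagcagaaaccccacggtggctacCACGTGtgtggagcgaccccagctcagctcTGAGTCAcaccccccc
Tomm20, chr8:126872713-126872798: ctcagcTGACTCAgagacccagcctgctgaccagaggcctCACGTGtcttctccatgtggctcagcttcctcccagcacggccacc

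The control call came from 1 library far more often than from the others. Control replicate 3 made it in 1055 members (88.3%, 95% Wilson interval 86.3 to 89.99), control replicate 2 in 82 (6.86%) and control replicate 1 in 58 (4.85%). The lists differ much in length, with 2794, 3349 and 10601 peaks in control replicates 1, 2 and 3, and 4220, 9805 and 5053 in senescent replicates 1, 2 and 3. Among all 7532 regions with exactly 1 control call, whatever the senescent libraries showed, control replicate 3 made the call in 91.7%, replicate 2 in 5.07% and replicate 1 in 3.23%. The share held by the longest control list in the members was therefore near, and slightly below, its share of all single control calls. It was 92.2% in regions with no senescent call, 92.9% with 1, 89.1% with 2 and 87.4% with 3. Wilson intervals cover counting error only.

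Each member needed 2 or 3 senescent calls but exactly 1 control call, so the rule itself favours a more even sharing of the senescent calls. Senescent replicate 2, the longest senescent list, called 1161 members, replicate 3 called 952 and replicate 1 called 841. All 3 senescent libraries called 564 members (47.2%), replicates 2 and 3 called 354, replicates 1 and 2 called 243, and replicates 1 and 3 without replicate 2 called 34. As a share of the regions in each list, the members made up 20.6% in senescent replicate 1, 12.4% in replicate 2 and 19.6% in replicate 3, against 2.26%, 2.63% and 10.3% in control replicates 1, 2 and 3. Of all regions with 2 senescent calls, 31.6% had exactly 1 control call and 48.1% had none. Of those with 3 senescent calls, 20.5% had exactly 1, 22.8% had none and 40.1% had all 3.

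**Figure D1:**
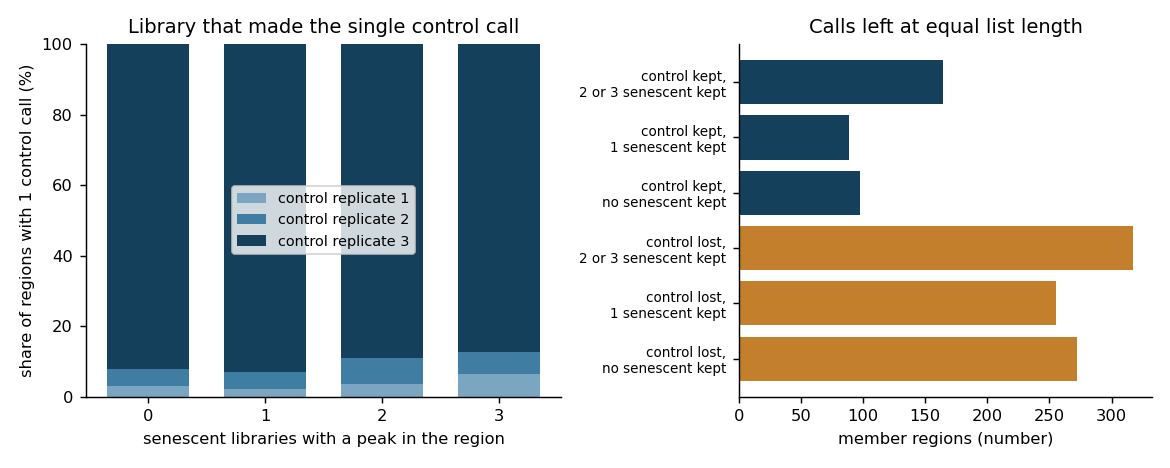
Left, share (%) of the regions with exactly 1 control call that each control library called, by the number of senescent libraries with a peak; right, number of the 1195 members by the calls left when every list is shortened to its best 2794 peaks. Control replicate 3 fills 87.4% to 92.9% of every bar on the left, and the longest bar on the right is the 317 members that lose the control call and keep 2 or 3 senescent calls.

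To compare the lists at equal length, every list was shortened to its best-scoring 2794 peaks, the length of the shortest. Control replicate 1 is that list and could lose no call, while control replicate 3 was cut from 10601 peaks. The control lists were thus not equally open to losing a call. Of the 1195 members, 317 (26.5%) then lost the control call and kept 2 or 3 senescent calls, and 164 (13.7%) kept both. A further 272 (22.8%) lost every call on both sides, 255 kept only 1 senescent call, and 98 kept the control call alone. Of the 317, control replicate 3 had made the call in 308 and control replicate 2 in 9. At this length the rule itself gave 383 regions, and control replicate 3 made the control call in 31.3% of them. Of the 164 members that kept both sides, control replicate 3 had made the call in 106, replicate 1 in 32 and replicate 2 in 26. The lists do not show whether a longer list came from depth or from binding.

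Pooled over the members, the control call stood near the middle of its own list. The median rank of the control peak was 49.9% of the list length, where 0 is the best score. Ranks of single regions are given as positions, and their order between libraries was read after division by the length of each list. In control replicate 3 the median of the 1055 members was 46.6%, in replicate 2 it was 70.8% and in replicate 1 it was 69.0%. Over all regions called in each list, the medians were 49.7%, 49.2% and 48.7% in control replicates 3, 2 and 1. The senescent peaks of the same regions had a median of 55.5% in replicate 1, 32.4% in replicate 2 and 51.5% in replicate 3. Regions called in all 6 libraries stood higher in each list, with medians between 6.72% in control replicate 3 and 24.6% in control replicate 1. The control peak ranked behind every senescent peak of its region in 406 members (34.0%) and ahead of all of them in 345 (28.9%). In the 1055 members of control replicate 3 the counts were 329 behind and 330 ahead, whereas control replicate 1 had 35 behind and 7 ahead, and control replicate 2 had 42 behind and 8 ahead.

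**Figure D2:**
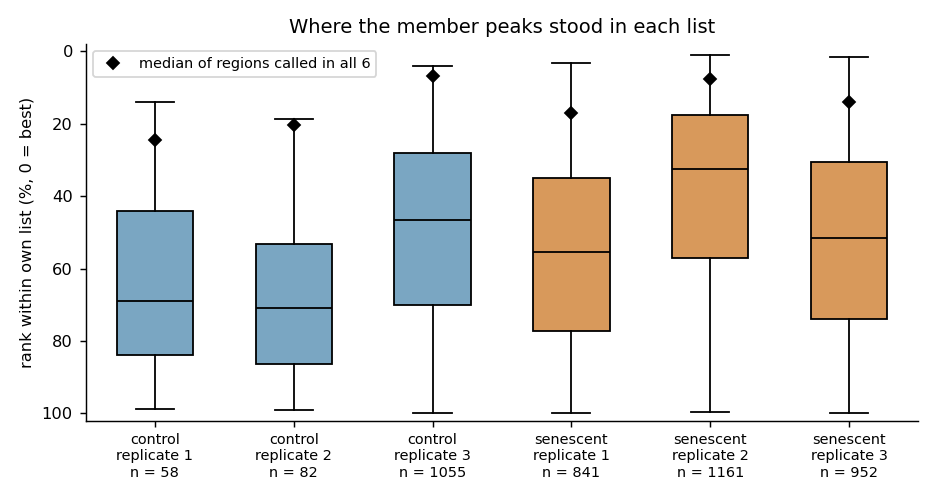
Rank of the best peak of each member within the list of each library that called it (%, 0 is the best score; boxes give quartiles and whiskers the full range); diamonds give the median of the regions called in all 6. The median of the members lies between 32.4% (senescent replicate 2) and 70.8% (control replicate 2), a larger rank percent than the diamond in every library (the axis is inverted, with the best ranks at the top).

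The rule joins overlapping peaks, so the control and senescent peaks of a member lie close together. Their centres were a median of 50 bp apart, and 927 members (77.6%) had centres within 100 bp. The control peak itself overlapped peaks of 3 senescent libraries in 544 members, of 2 in 624 and of 1 in 27, where the merged region was held together by the senescent peaks. A control library that did not call the member had a peak of its own within 1000 bp of 100 members (8.37%) and within 10000 bp of 259 (21.7%). For regions with 2 or 3 senescent calls and no control call, where all 3 control libraries count, the shares were 10.8% and 26.8%. A region called in all 6 libraries lay within 10000 bp of 107 members (8.95%). The same held for 5.98% of the regions with no control call. It held for 9.26% of the mirrored set, and for 11.1% of regions with 2 or more calls on each side but not all 6.

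The 10 best-ranked members were all distal, over 1000 bp from a start site. The region nearest to Arl4d, a small GTPase gene, lay at chr11:101687618-101688380, between genes and 22458 bp downstream of the start site. It ranked 141, 95 and 84.5 in senescent replicates 1, 2 and 3 and 1599 of 10601 in control replicate 3. It carried neither an E-box nor an AP-1 motif near its centre, though 1 AP-1 motif lay elsewhere in it. The Hk1 intron (chr10:62299934-62300872) ranked 144, 161 and 278 in the senescent lists and 8448 in control replicate 3. Both regions thus stood near the top of every senescent list, while the control peak stood far down its list for Hk1 and much less so for Arl4d.

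The Snx33 intron (chr9:56924510-56925102) ranked 233, 207.5 and 187 in the senescent lists and 1990.5 in control replicate 3. The P2rx7 intron (chr5:122647495-122648559) ranked 266.5, 272 and 152 against 7631 in the control list. The Shc2 intron (chr10:79632921-79633546) ranked 297, 280.5 and 190.5 against 9398. The control rank was behind every senescent rank at each of these, an order that the choice of regions by their senescent ranks favours. The Rasd2 region (chr8:75212473-75213307), 1052 bp upstream of the start site, had a control rank of 10368.5 of 10601, close to the end of that list, and senescent ranks of 191.5, 403.5 and 372.5. Others of the 10 lay nearest to 4930535I16Rik, Wdr5 (a subunit of histone methyltransferase complexes) and Klf14, and each of these carried an E-box within 100 bp of the centre.

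Members called by control replicates 1 and 2, the shorter lists, are the ones that the longest control list missed. For control replicate 1, named members lay nearest to Marc1 (chr1:184824319-184824918), a mitochondrial reductase gene, at control rank 1231 of 2794 and senescent ranks 509.5, 476.5 and 759.5, and in an intron of Rbms1 (chr2:60830686-60831099), an RNA-binding protein gene, at control rank 1887 and senescent ranks 603.5, 1658 and 385. The best of control replicate 2 lay upstream of Prex1, an exchange factor for RAC (chr2:166730056-166730583), at control rank 1904.5 and senescent ranks 455, 381.5 and 280.5. A further member of control replicate 2 lay nearest to Arrdc3 (chr13:80962562-80963218), at control rank 2883 of 3349 and senescent ranks 334, 911.5 and 704. All of these had an E-box near the centre. The E-box of the Prex1 region is shown to set it beside those of the members called by control replicate 3:
Prex1, chr2:166730282-166730367: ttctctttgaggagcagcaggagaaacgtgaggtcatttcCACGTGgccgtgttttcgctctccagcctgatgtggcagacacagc

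At the edge of the rule, the control peak of control replicate 3 nearest to Sfi1 (chr11:3123827-3124032) had a score of 2.05 and ranked 10599.5 of 10601 there, with ranks of 897 and 3860.5 in senescent replicates 2 and 3. In control replicate 1 the lowest score among the members was 2.30, at regions that include the promoter of Atxn7l3, a gene of a deubiquitinating module. Just outside the rule, the regions nearest to Rfx2 and Rps28 had a second control call, in control replicate 2, with scores of 2.13 and 2.30. These scores lie near the threshold of their own lists and are not compared between libraries. At the other end, the best control ranks among the members were 430 at the promoter of Pcm1, a centriolar satellite gene, and 441 at that of Tfb2m, a mitochondrial transcription factor. Both were called in 2 senescent libraries, Pcm1 at ranks 3254 and 1455 and Tfb2m at 877.5 and 2197.5 in replicates 2 and 3.

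An E-box lay within 100 bp of the centre of 348 members (29.1%, 26.6 to 31.8), against 16.7% of all regions. In windows of the same length placed 2000 bp to each side it was found in 2.51%. The share was 37.8% in the 1588 regions with 2 or 3 senescent calls and no control call (senescent-only regions), 29.7% in the 862 with 2 or more calls on each side but not all 6, 44.6% in the 1106 regions called in all 6, and 10.6% in the 443 control-leaning regions. The members' share was thus close to that of the regions shared but not called in all 6, below those of the senescent-only regions and the regions called in all 6, and above that of the mirrored set. The motif share and promoter share played no part in choosing the members, but the differences were not tested, and the intervals cover counting error only. The E-boxes were centred, at a median of 37.5 bp from the centre, and 84 members (7.03%) held 2 or more E-boxes in the whole region. Pairs of E-boxes separated by 6 or 7 bp, the tandem arrangement known from clock genes, were found in 0 of 1195 members, which allows a share of up to 0.251%. They were in 0.166% of all regions, so a share like that of all regions was not excluded.

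Among the members, the E-box share differed with the number of senescent calls. An E-box lay in 40.4% (36.5 to 44.5) of the 564 members called in all 3 senescent libraries and in 19.0% (16.1 to 22.3) of the 631 called in 2. The same order was seen for each calling library. In members called by control replicate 3 the shares were 39.4% and 18.1%, in those of control replicate 2 they were 45.7% and 23.4%, and in those of control replicate 1 they were 18 of 36 and 7 of 22 regions. Regions with 1 control call and at most 1 senescent call held an E-box in 4.97% of cases when control replicate 3 made the call. Across the regions with 3 senescent calls, the E-box share was 46.97% with 0 control calls, 40.4% with 1, 38.5% with 2 and 44.6% with 3. Across those with 2 senescent calls it was 31.8%, 19.0% and 17.2%, and 33 of 132 regions with 3 control calls. In neither series did the share fall or rise throughout with the number of control calls.

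**Figure D3:**
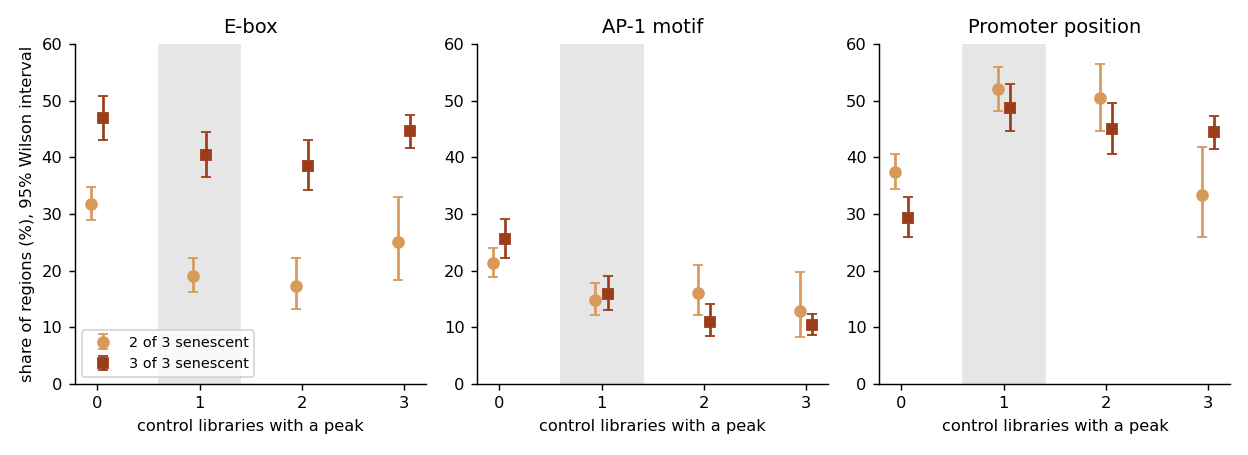
Share (%) of regions with an E-box, an AP-1 motif or a promoter position, by the number of control libraries with a peak, for regions called in 2 (circles) or 3 (squares) senescent libraries; bars are 95% Wilson intervals and the shaded column holds the members. In the shaded column the E-box shares are 19.0% and 40.4%, the AP-1 shares 14.7% and 15.8%, and the promoter shares 52.1% and 48.8%.

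An AP-1 motif lay within 100 bp of the centre of 182 members (15.2%, 13.3 to 17.4), against 16.5% of all regions and 3.51% of the flanking windows. The members' AP-1 share was therefore near that of all regions. It was 22.9% in senescent-only regions, 12.9% in regions shared by both groups but not called in all 6, 10.3% in regions called in all 6 and 17.2% in control-leaning regions. With 3 senescent calls the share was 25.5%, 15.8%, 10.9% and 10.3% for 0, 1, 2 and 3 control calls, and with 2 senescent calls it was 21.2%, 14.7%, 16.1% and 12.9%. The interval of the members with 3 senescent calls (13.0 to 19.0) did not reach that of the senescent-only regions with 3 calls (22.2 to 29.0). The promoter share of these sets differs, and among distal regions alone the intervals of all members (26.7%, 23.3 to 30.4) and all senescent-only regions (30.3%, 27.6 to 33.2) overlapped. Among promoter regions alone they did not, at 3.97% (2.68 to 5.84) of all members and 8.66% (6.57 to 11.3) of all senescent-only regions. Both motifs lay together in 40 members (3.35%), and 705 (59.0%) held neither.

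**Figure D4:**
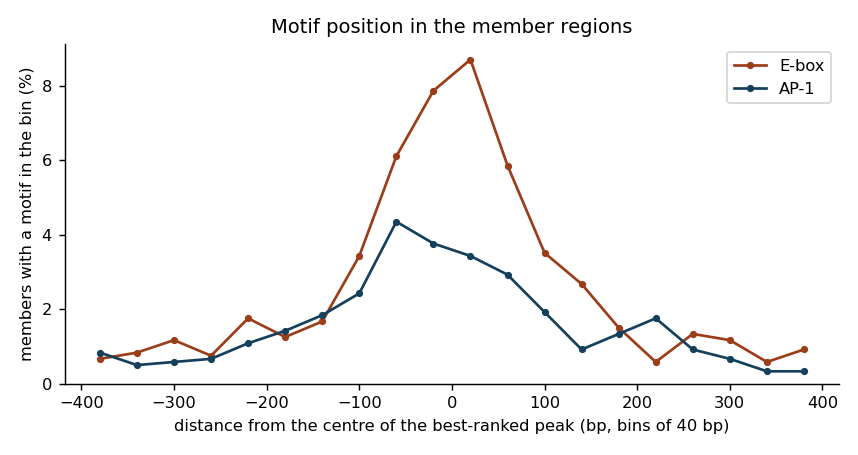
Share (%) of the 1195 members with an E-box or an AP-1 motif in each 40 bp bin, by distance (bp) from the centre of the best-ranked peak. The E-box reaches 8.70% in the bin just past the centre and AP-1 reaches 4.35% at 80 to 40 bp before it, and both fall towards the edges.

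Promoters held 604 members (50.5%, 47.7 to 53.4), against 33.9% of all regions. The share was 34.2% in senescent-only regions, 45.01% in regions shared but not called in all 6, 44.4% in regions called in all 6 and 34.8% in control-leaning regions. Regions with 1 call in each group had a promoter share of 52.0%, like the members, and an E-box share of 8.96%. The members called by control replicate 3 had a promoter share of 52.6% (49.6 to 55.6), and those called by replicates 1 and 2 had 36.2% (25.1 to 49.1) and 34.1% (24.8 to 44.9). The promoter share moved with the calling library. Its part in the difference from the senescent-only regions was not tested. Where control replicate 3 made the only control call and at most 1 senescent library called the region, 26.2% were promoters.

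Promoter and distal members carried the motifs of different factors. The E-box was as frequent in the 604 promoter members (28.8%) as in the 591 distal members (29.4%), whereas AP-1 lay in 3.97% of promoter members and 26.7% of distal members. The GC box GGGCGG, a site of SP-family factors, was found in 60.6% of promoter and 15.1% of distal members, NF-Y sites (CCAAT, then C or G, then A or G) in 27.8% and 9.48%, and the ETS site CCGGAAG in 13.4% and 2.54%. In all promoter and distal regions the GC box was in 52.4% and 8.21%, NF-Y sites in 24.1% and 8.50%, and the ETS site in 12.9% and 1.404%. In all regions AP-1 lay in 4.79% of promoter and 22.4% of distal regions, and the E-box in 19.5% and 15.2%. The E-box share of the members was thus above that of all regions on both sides. Their AP-1 share was near that of all regions at promoters and, with an interval of 23.3 to 30.4, above it at distal positions. This was not particular to the members. The distal share was 26.7% in regions with 1 call in each group and 30.3% in senescent-only regions. It was lower in control-leaning regions (23.2%), regions shared but not called in all 6 (20.5%) and regions called in all 6 (15.6%). The TEAD site CATTCCA, the RUNX site TGTGGTT and the glucocorticoid receptor site AGAACA were in 9.14%, 8.46% and 15.2% of distal members, against 7.86%, 9.48% and 16.9% of all distal regions. CACGTT, a weaker relative of the E-box, was in 9.12% of the members and 6.01% of all regions, and the cAMP response element TGACGTCA in 1.76% and 1.31%. Over all members and all regions, the GC box was in 38.1% and 23.2%, NF-Y sites in 18.7% and 13.8%, and the ETS site in 8.03% and 5.30%. All patterns were searched on both strands.

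**Figure D5:**
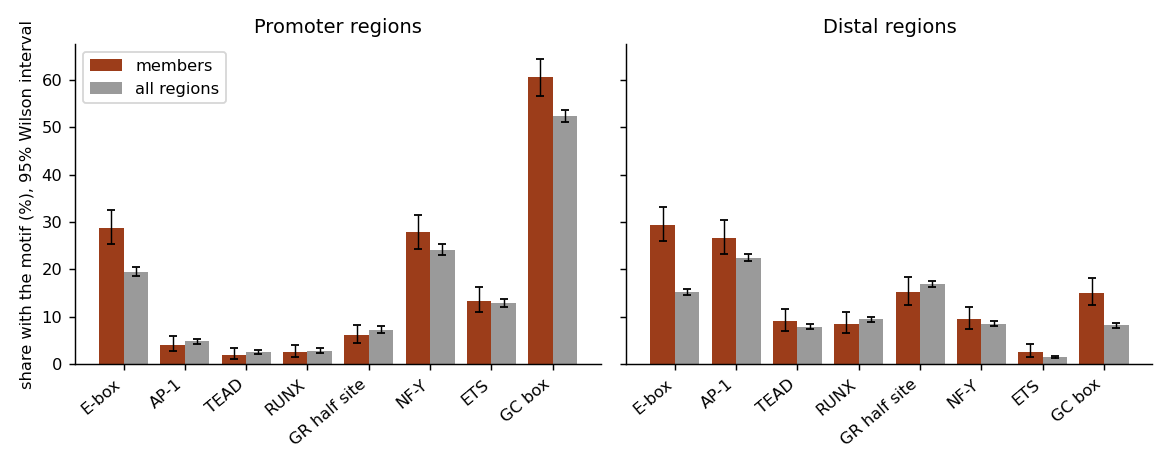
Share (%) of promoter (left) and distal (right) regions with each motif within 100 bp of the centre, for the members and for all regions; error bars are 95% Wilson intervals. The E-box stands above all regions on both sides (28.8% against 19.5%, and 29.4% against 15.2%), and AP-1 is frequent on the distal side (26.7%).

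The promoter members were nearest to 595 genes, of which 485 matched a RefSeq promoter window by symbol. In 634 windows of 300 bases around the starts of these genes (GRCm38.p6), CACGTG was found in 22.6%, against 7.15% of all 32851 windows in that table. TGAGTCA was found in 3.00% and 5.20%. These windows were not compared with those of genes with other BMAL1 promoter regions. Near the peak centre, the E-box share was 28.8% in promoter members, 35.9% in senescent-only promoters and 49.1% in promoters called in all 6. It was 29.1% in promoters shared but not called in all 6, 10.4% in control-leaning promoters and 9.23% in promoters with 1 call in each group. The base composition followed position, with a median GC content of 63.5% in promoter and 51.5% in distal members, and of 57.0% in all members against 51.0% in all regions. The median region was 374 bp wide in the members, 290 bp in senescent-only regions and 671 bp in regions called in all 6.

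The members were nearest to 1103 of 21840 protein-coding genes (5.05%), and 14.1% of the 7843 genes nearest to any region were nearest to a member. Of all protein-coding genes 35.9% were nearest to any region, and in every list below the share was larger. It was 34 of 49 secretory, 31 of 43 TGF-beta and BMP, 34 of 38 collagen and matrix and 12 of 15 AP-1 genes. It was 12 of 13 clock output, 17 of 23 CDK inhibitor and p53, 19 of 22 YAP and TEAD, and 14 of 19 glucocorticoid-induced genes. Further lists had 28 of 34 Wnt, 26 of 35 MAPK and 17 of 26 apoptosis genes. The last had 18 of 26 genes of other E-box factors, 32 of 47 autophagy and lysosome and 26 of 39 cell cycle genes. The 5.05% is therefore a low background for the lists, and the 14.1% applies to their genes nearest to any region. A nearest start site is a position and no proof of regulation, and the groups of genes named here are given as counts. Of 18 core clock genes, 14 were nearest to some region and 2 to a member, Nr1d1 and Rorb. Nr1d1 encodes a repressor of Bmal1. Its region (chr11:98768788-98769043) lay 6391 bp downstream of the start site, in an exon of the neighbouring gene Thra, and had no E-box. It ranked 10540 of 10601 in control replicate 3 and 6610 and 3324 in senescent replicates 2 and 3. Of 13 clock output genes 3 had a member (Tef, Por and Bhlhe40). The Tef promoter, of a PAR-family transcription factor with daily rhythm, held an E-box (chr15:81802328-81802830) and ranked 1442.5, 510 and 1022.5 in the senescent lists and 3448 in control replicate 3. The members at these genes thus included a start site with an E-box at Tef and none at Nr1d1.

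Members lay near genes of AP-1 itself and near genes that dexamethasone induces. Of 15 AP-1 subunit and related genes 5 had a member (33.3%), namely Junb, Mafk, Fosl1, Fosb and Jun. The Junb region (chr8:84978526-84979159) lay 100 bp upstream of the start site, with senescent ranks of 783, 1003 and 936 and a control rank of 1545.5. The Jun region (chr4:95052200-95052608), 182 bp upstream, ranked 1393, 4024 and 4126 in the senescent lists and 947.5 in control replicate 3. As a percent of the list, the control call at Jun was ahead of every senescent call, and at Junb it stood among them. None of the 6 regions at these genes held an AP-1 motif near its centre, and 1, at Mafk, held an E-box there. Another Mafk region (chr5:139791201-139791983) held 3 E-boxes, all farther from its centre. Of 19 glucocorticoid-induced genes 7 had a member (36.8%), among them Angptl4, Dusp1, Ddit4 and Sgk1. The Dusp1 promoter, of a phosphatase that turns off MAP kinases, ranked 1487.5, 495.5 and 1057 in the senescent lists and 3347 in control replicate 3.

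Of 43 genes of the TGF-beta and BMP pathway 13 had a member (30.2%), with 19 regions in all. Near the centre, 5 of these held an E-box and 4 an AP-1 motif. By role, the ligand genes Inhba and Tgfb3 each had a member, as did the receptor genes Acvr1b and Tgfbr3, the signal-relaying Smad2, the inhibitory Smad6 and the ubiquitin ligase gene Smurf2. Smad2 had a region with an E-box 274 bp upstream of its start site, with senescent ranks of 1017.5, 1903.5 and 721.5 and a control rank of 2707. As a percent of the list, the control call stood at 25.5% and the senescent calls at a mean of 19.3%. The Inhba region (chr13:16761370-16761760) carried both motifs but lay 747097 bp from the start site. Id3, a target that blocks basic helix-loop-helix factors, had a region 4553 bp downstream of its start site at senescent ranks of 1200.5, 962.5 and 1342 against 6052, and another 2807 bp downstream at 6248 and 3737.5 in senescent replicates 2 and 3 against 1510. The second of these was chosen after its values were seen. The 2 Id3 regions thus had opposite orders. In the YAP and TEAD pathway 5 of 22 genes had a member, Tead1, Mob1b, Vgll3, Amotl2 and Wwtr1, which encode a DNA-binding factor, a kinase adaptor, a cofactor, a YAP-binding scaffold and the coactivator TAZ.

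Of 49 genes of the senescence secretory program 34 were nearest to some region and 5 to a member (10.2% of the 49). The 5 of 34 is near the 14.1% over all genes nearest to any region. These 5 genes had 9 member regions. The best ranked was in an intron of Fgf2, a growth factor (chr3:37357193-37357689), at senescent ranks of 326.5, 268 and 668 and a control rank of 5434.5. Angptl4, a secreted inhibitor of lipoprotein lipase, had an E-box region 643 bp downstream of its start site at senescent ranks of 582.5, 2474.5 and 554 against 4306.5. Timp2, an inhibitor of matrix proteases, had a region 5634 bp upstream without either motif near its centre, though 1 E-box lay elsewhere in it. Of 23 genes of CDK inhibitors and the p53 pathway 4 had a member. Cdkn1a, which encodes p21, had an intronic region 1571 bp downstream of its start site (chr17:29095172-29095645), called in senescent replicates 2 and 3 at 1903.5 and 1678 and in control replicate 3 at 8878. Bbc3, a p53 target that promotes apoptosis, had an E-box region at senescent ranks of 1991.5, 1573 and 4205.5 against 9337.5. At these regions of Fgf2, Angptl4, Timp2, Cdkn1a and Bbc3, the control call was behind every senescent call as a percent of the list. They were among the better-ranked members of their lists by senescent rank, a choice that favours this order. The order did not hold at every member of these lists, such as a further Angptl4 region.

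The remaining lists stood between 7.69% and 14.9%. Of 47 autophagy and lysosome genes 7 had a member, with 10 regions of which 7 were promoters and 4 held an E-box near the centre. Mcoln1, a lysosomal calcium channel, had the best E-box promoter of them at senescent ranks of 765, 990.5 and 819.5 and a control rank of 2605. Of 35 MAPK genes 5 had a member, of 34 Wnt genes 4, of 38 collagen and matrix genes 5, of 39 cell cycle genes 3, of 26 apoptosis genes 3 and of 26 genes of other E-box factors 2. Ccnd1, which encodes cyclin D1, had an E-box region 2686 bp upstream (chr7:144942180-144942957) at senescent ranks of 1338.5, 468.5 and 1504 against 3406.5. Lrp6, a Wnt co-receptor, had an intronic region with both motifs at 957, 1943.5 and 824 against 7631. Of 12 genes that the study singles out 1 had a member, Runx2. The study counts Runx2 among genes with less BMAL1 binding in senescent cells, the other direction from the calls of this member. Its control call stood at 58.1% of the list and its senescent calls at a mean of 69.7%. The E-boxes at some of the listed genes are shown for comparison with the best-ranked members, with the AP-1 site of Lrp6 also in capitals:
Fgf2, chr3:37357463-37357548: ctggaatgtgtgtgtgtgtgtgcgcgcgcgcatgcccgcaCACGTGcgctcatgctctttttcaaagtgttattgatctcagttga
Tef, chr15:81802534-81802563: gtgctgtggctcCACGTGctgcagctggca
Mcoln1, chr8:3500462-3500491: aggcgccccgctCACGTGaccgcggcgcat
Ccnd1, chr7:144942554-144942639: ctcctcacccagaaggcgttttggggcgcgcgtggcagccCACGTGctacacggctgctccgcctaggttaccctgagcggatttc
Lrp6, chr6:134544224-134544309: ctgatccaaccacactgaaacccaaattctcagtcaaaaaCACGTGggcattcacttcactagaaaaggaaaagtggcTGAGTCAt

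Most genes had a single member, 1023 of the 1103, while 70 had 2 and 10 had 3 or more. The genes with 3 or more, which were chosen after their values were seen, included 1700001O22Rik with 4 and Bahcc1, Cited2, H6pd, Hmox1, Irf2bp2, Smad6, Tgif1 and Tpt1 with 3 each. Hmox1, which encodes heme oxygenase 1, had a member 29 bp upstream of its start site with an E-box, at senescent ranks of 1789.5 and 1505.5 in replicates 1 and 2 and a control rank of 1205.5. Its other 2 members lay 9607 and 21780 bp upstream. The nearer one carried an AP-1 motif near its centre and no E-box. The farther one carried an E-box and ranked 500, 5814.5 and 1118.5 in the senescent lists and 5267 in control replicate 3.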

How the data were processed

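BMAL1-ChIP-seq of 3 control and 3 senescent MAF libraries was analysed. The 6 input libraries were not analysed here. The authors mapped reads to mm10, removed duplicates with Picard, and called peaks for each library alone with macs2 at an FDR of 1%. The deposited peak scores were taken to be −log10 q-values, an inference from lowest scores of 2.02 to 2.12. Scores grow with depth, so peaks were ranked by them only within a list, with ties sharing a mean rank; the regions nearest the threshold were picked by raw score. The macs2 version, and whether the input served as the macs2 control, are not given in the sources used here. Per the file headers all 6 libraries shared a sequencing lane.

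Peaks were merged at an overlap of 1 bp or more (numpy 2.4.6, pysam 0.24.0). Motifs were exact matches in GRCm38 within 100 bp of the centre of a region's best-ranked peak. Genes were the nearest protein-coding start sites of GENCODE M21 basic, and a promoter lay within 1000 bp. Intervals are 95% Wilson (scipy 1.17.1) and no p-value was computed. The counting steps were tested on simulated peaks. The members and the 16 gene lists were chosen with earlier results of these data known. Named regions were the 10 best by mean senescent rank, the 3 best of each calling control library and of each of 4 motif classes, those nearest the thresholds, and up to 4 for each gene list. Some regions that this rule selects are not reported here. Alternatives were other score thresholds, equal list length, 50% overlap, autosomes and X, each library left out, other motif windows and a promoter distance of 3000 bp.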

Additional observations from a re-analysis of the deposited data

How the results depend on the processing

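The number of members was 571 when each list kept its peaks above the median score and 383 at equal list length, and it ranged from 601 (without senescent replicate 2) to 1561 (without control replicate 2) when a library was left out. It was 850 without control replicate 3. The share with the control call in control replicate 3 was 84.9% above the median score and 31.3% at equal list length, and ranged from 86.7% to 95.2% without a library. The E-box share was 39.8% above the median score and 45.4% at equal list length, 18.9% within 50 bp, 38.7% anywhere in the region and 26.6% after the flanking share was subtracted, and ranged from 27.5% to 40.4% without a library. The AP-1 share was 12.8% above the median score, 8.62% within 50 bp, 22.0% anywhere in the region and 11.7% after subtraction, and ranged from 13.9% to 15.8%. The promoter share was 57.1% at 3000 bp and ranged from 45.2% without control replicate 3 to 50.7%. The cause of these changes was not tested, beyond the fewer peaks and libraries that each setting holds. With an overlap of 50% of the shorter peak or with autosomes and X alone, each result stayed within its interval, or for the number of members within 1.5 times. The share of control replicate 3 has no value without that library, nor the share called in all 3 senescent libraries without a senescent one. No paired analysis was possible because no result comes from a test. Depth is unknown, so a missing call cannot be separated from a shallow library.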
